A study of Homo sapiens with 10 samples.

Results

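The genes described here are the collagen chains and the lysyl oxidases, the enzymes that cross-link collagen, measured in cells labelled as a bronchial epithelial line. They were taken from the long RNA count tables as every protein coding row whose symbol is a collagen chain (COL, a type number, A, a chain number) or LOX and LOXL1 to LOXL4. The rule found 48 genes, 43 collagen chains and 5 lysyl oxidases, among 57773 rows, of which 20284 were protein coding. COL26A1 has a matching name but carries the biotype polymorphic pseudogene in the tables and was left out. By class, 11 were fibrillar collagens, 9 were basement membrane collagens and 23 were other collagens, of which 10 sit on fibril surfaces (the FACIT class), 9 form beaded filaments or short chain networks and 4 span the membrane.

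By the labels the cells were BEAS-2B, human bronchial epithelium immortalised by viral transformation. Markers of photoreceptors and neurons, given below, were high in the empty vector libraries, and the identity of the cells was not tested. Stable lines had received a vector for TAF1C, a subunit of the SL1 factor that recruits RNA polymerase I, or the same kind of vector left empty, with pCMV6 given as the promoter. Long RNA was sequenced after ribosomal RNA depletion in 3 libraries labelled TAF1C and 2 empty vector libraries, all from cells grown in LHC9 medium with 10% FBS under G418 selection. Nothing in the labels says whether the libraries of a group came from separate cultures or clones, so a p here measures only spread among these libraries, which may be technical.

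Collagens are secreted as triple helices of chains encoded by separate genes. Fibrillar collagens (types I, II, III, V, XI, XXIV and XXVII) build the cables of connective tissue, type IV chains build the sheet of the basement membrane on which epithelia rest, and type VII forms the fibrils that anchor that sheet to the tissue below. Lysyl oxidases are copper-dependent amine oxidases that convert lysines of collagen and elastin into the aldehydes from which cross-links form.

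The libraries held 37533366, 36481548 and 34212883 counts with the TAF1C label, against 22809601 and 28476151 with the empty vector. The TAF1C transcript (ENSG00000103168) was not higher under its own label: it had 64.0, 59.0 and 67.0 CPM (the usual depth-scaled count unit, here scaled by TMM) in the libraries labelled TAF1C, against 64.4 and 77.7 CPM in the empty vector libraries. The groups overlapped (log2 fold change -0.17 ± 0.13 (SE); edgeR adjusted p = 0.353). An exact two-sided permutation test of the -7.71 CPM between the group means gave p = 0.4, where 0.2 is the smallest possible. The directions below are therefore between libraries as labelled. Between the 2 empty vector libraries the log2 difference had an SD of 1.08 over tested genes, against 0.383 to 0.416 between the libraries labelled TAF1C. The 13 markers of retinal photoreceptors summed to 9.27 to 14.8 CPM in the libraries labelled TAF1C, against 1747 and 1366 CPM in the empty vector libraries, with the highest mean CPM for OTX2 and RBP3, although in empty vector library 2 RBP3 lay below CRX and AIPL1. The 9 markers of neurons summed to 7.61 to 8.85 CPM, against 606 and 421 CPM, with the highest mean CPM for NEUROD1 and SYP. Of both lists, only STMN2 was at 0 counts in a library, empty vector library 2. The filter of 1 CPM in 2 libraries was met through the empty vector libraries alone by 7 of the 12 photoreceptor and 4 of the 7 neuron markers tested, so no count of calls is given for these lists. Of 9 bronchial epithelial markers, 7 were tested. Among these, 3 were raised (KRT7, KRT8 and KRT18), 1 was lowered (EPCAM) and 3 did not pass. Among all tested genes 15.9% were raised and 22.6% lowered. KRT7 had 1052, 967 and 1062 CPM in the libraries labelled TAF1C, against 223 and 247 CPM with the empty vector. EPCAM had 0.0570, 0.176 and 0.433 CPM, against 14.7 and 1.10 CPM, and met the filter through the empty vector libraries alone. KRT5 and TP63 stayed below 2 CPM in all 5. CDH1 reached at most 1.45 CPM with the TAF1C label and at most 2.97 CPM with the empty vector.

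Of the 48 genes, 43 had at least 1 CPM in at least 2 libraries and were tested. By the edgeR quasi-likelihood test at an adjusted p of 0.05, 10 were raised in the libraries labelled TAF1C, 9 were lowered and 24 did not pass. Of the 9 lowered, COL11A1 and COL28A1 met the filter through the empty vector libraries alone, as did 1605 of the 4158 lowered among all genes. The 19 called are 44.2% of those tested, beside 38.5% of all 18402 tested genes (15.9% raised and 22.6% lowered). The groups did not overlap for 22 of the 43, beside 64.2% of all tested genes; 13 stood above (29.8% of all) and 9 below (34.4% of all). The share of collagens and lysyl oxidases that changed was thus near that of all genes, and what follows concerns which of them changed. The median log2 fold change was -0.30 over the 43 and -0.10 over all tested genes. With quantile normalization the counts were 13 raised and 6 lowered of the 43 and 4303 and 2912 of all genes (median of all genes 0.22), and with library totals alone 7 and 9 of the 43 and 2269 and 5021 of all (median -0.33). In bulk RNA, fewer cells that make a transcript and less of it per cell cannot be told apart.

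**Figure D1:**
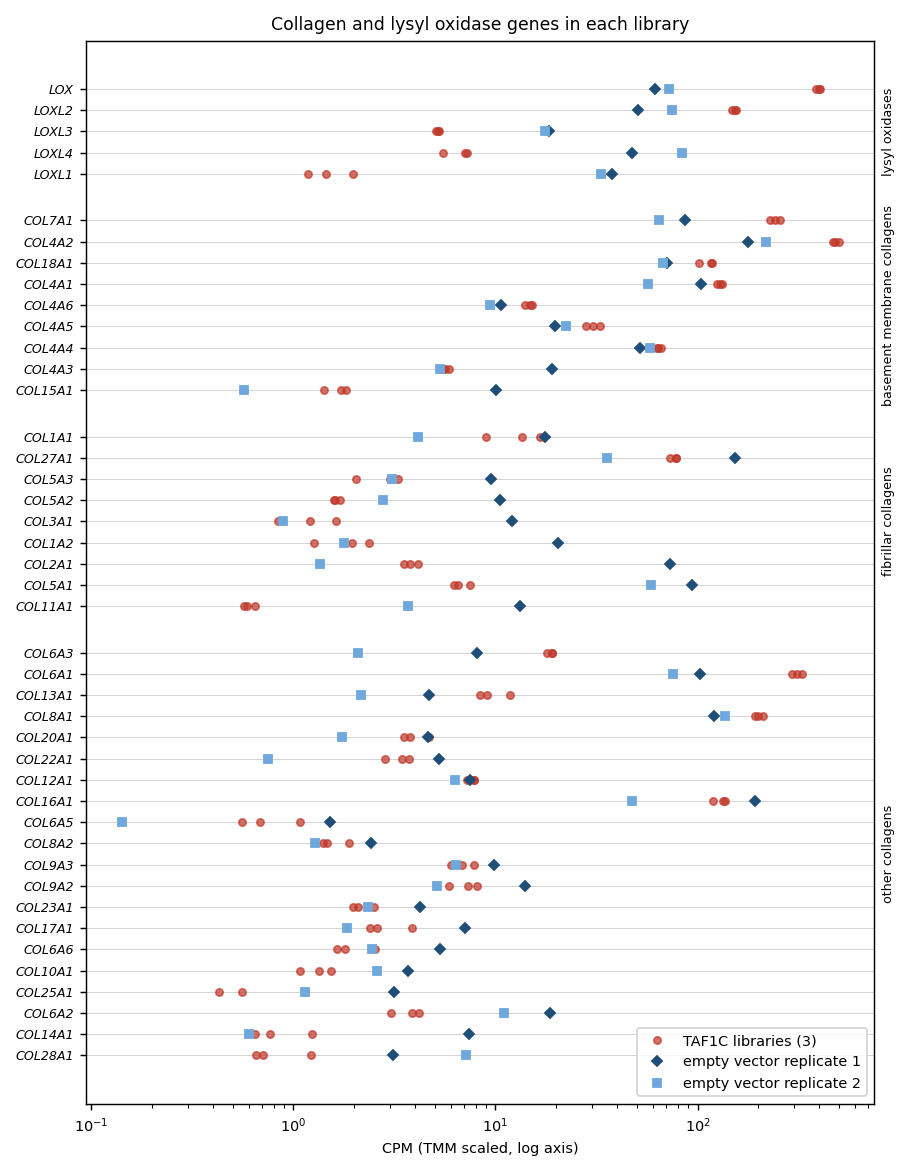
Normalised read count (CPM, log axis) of the 43 tested genes in each library, 3 labelled TAF1C and 2 with the empty vector, arranged by class; each point is 1 library. The libraries labelled TAF1C lie close together for most genes, while the empty vector points of many fibrillar and FACIT collagens lie far apart.

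The lysyl oxidases split cleanly between the groups: the libraries labelled TAF1C had more LOX and LOXL2, and less LOXL1, LOXL3 and LOXL4. All 5 passed the test, beside 38.5% of all tested genes, and none overlapped between groups, beside 64.2% without overlap. The promoter windows of LOX and of the 3 lowered enzymes are shown, because family members with close functions moved in opposite directions. Each runs 5′ to 3′ on the coding strand from 250 bases before to 50 after the annotated start (RefSeq, GRCh38.p14). Capitals mark, on either strand, TATAAA for the TATA box, CCAAT for the CCAAT box and GGGCGG for the GC box. The windows are chr5:122078210-122078509 on the minus strand for LOX, chr15:73926212-73926511 on the plus strand for LOXL1, chr2:74553893-74554192 on the minus strand for LOXL3 and chr10:98268145-98268444 on the minus strand for LOXL4.
LOX: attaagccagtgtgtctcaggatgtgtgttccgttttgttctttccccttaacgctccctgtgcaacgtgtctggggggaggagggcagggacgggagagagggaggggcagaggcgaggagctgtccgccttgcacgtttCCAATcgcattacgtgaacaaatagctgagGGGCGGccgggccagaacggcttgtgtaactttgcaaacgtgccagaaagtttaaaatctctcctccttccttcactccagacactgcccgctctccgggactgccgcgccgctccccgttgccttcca
LOXL1: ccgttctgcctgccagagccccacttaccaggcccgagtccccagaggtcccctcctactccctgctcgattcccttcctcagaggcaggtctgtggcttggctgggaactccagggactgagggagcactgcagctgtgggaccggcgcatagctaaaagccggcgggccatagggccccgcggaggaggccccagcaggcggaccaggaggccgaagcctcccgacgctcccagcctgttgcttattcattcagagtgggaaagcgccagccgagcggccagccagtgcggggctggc
LOXL3: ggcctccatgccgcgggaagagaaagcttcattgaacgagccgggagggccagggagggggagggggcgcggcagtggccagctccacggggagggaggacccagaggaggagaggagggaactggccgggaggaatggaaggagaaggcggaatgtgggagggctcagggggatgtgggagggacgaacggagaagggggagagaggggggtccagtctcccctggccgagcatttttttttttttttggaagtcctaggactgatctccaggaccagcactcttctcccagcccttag
LOXL4: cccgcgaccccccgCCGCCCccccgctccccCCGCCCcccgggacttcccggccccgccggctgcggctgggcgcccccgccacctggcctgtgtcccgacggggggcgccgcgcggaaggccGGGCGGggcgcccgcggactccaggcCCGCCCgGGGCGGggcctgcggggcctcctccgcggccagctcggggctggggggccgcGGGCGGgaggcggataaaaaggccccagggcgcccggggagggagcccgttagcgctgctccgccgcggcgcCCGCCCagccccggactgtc
The LOX window holds 1 CCAAT and 1 GGGCGG, the LOXL4 window 7 GGGCGG, and the windows of LOXL1 and LOXL3 hold none of the 3. Of all 35116 windows, which can hold several starts of a gene, 11.5% hold TATAAA, 34.6% CCAAT and 45.0% GGGCGG. These matches are descriptions of the letters only.

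LOX (ENSG00000113083), the founding member, secreted as a proenzyme, had 401, 403 and 385 CPM in the libraries labelled TAF1C, against 61.5 and 72.2 CPM in the empty vector libraries. All 3 libraries labelled TAF1C stood far above both empty vector libraries, 5.93-fold on the means (log2 fold change 2.57 ± 0.14 (SE), edgeR adjusted p = 0.00031). LOXL2 (ENSG00000134013), whose substrates include type IV collagen, had 154, 148 and 155 CPM with the TAF1C label, against 50.7 and 74.4 CPM with the empty vector. It was 2.43-fold higher without overlap (1.28 ± 0.18 (SE), edgeR adjusted p = 0.00474).

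LOXL1 (ENSG00000129038), which is needed in mice for elastic fibre upkeep, had 1.45, 1.18 and 1.98 CPM in the libraries labelled TAF1C, against 37.8 and 33.4 CPM in the empty vector libraries. It was near the 1 CPM filter in every library labelled TAF1C, and the mean of the empty vector libraries was 23.2-fold higher (log2 fold change -4.53 ± 0.27 (SE), edgeR adjusted p = 0.000359). Where LOXL1 overlaps its antisense gene LOXL1-AS1, reads of both cannot be told apart, since the strand setting of the counting is not stated. LOXL4 (ENSG00000138131), like LOXL2 and LOXL3 an enzyme with scavenger receptor domains, had 7.10, 5.50 and 7.27 CPM with the TAF1C label, against 47.5 and 83.6 CPM with the empty vector (-3.31 ± 0.28 (SE), edgeR adjusted p = 0.000918). LOXL3 (ENSG00000115318) had 5.08, 5.21 and 5.23 CPM, against 18.5 and 17.6 CPM with the empty vector (-1.80 ± 0.18 (SE), edgeR adjusted p = 0.00154). Both stood below each empty vector library in every library labelled TAF1C.

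Within a library, the ratio of LOX to LOXL1 CPM, not corrected for transcript length, was 276, 343 and 195 in the libraries labelled TAF1C, against 1.63 and 2.16 in the empty vector libraries. The ratio of LOX to LOXL2 was 2.61, 2.72 and 2.49, against 1.21 and 0.970, so LOX was higher relative to each partner in every library labelled TAF1C than in either empty vector library. All 5 calls held in each of the 12 alternative settings, including against either empty vector library alone. The photoreceptor and neuron markers given above were lower along with LOXL1, LOXL3 and LOXL4, and their part in these differences was not tested.

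**Figure D2:**
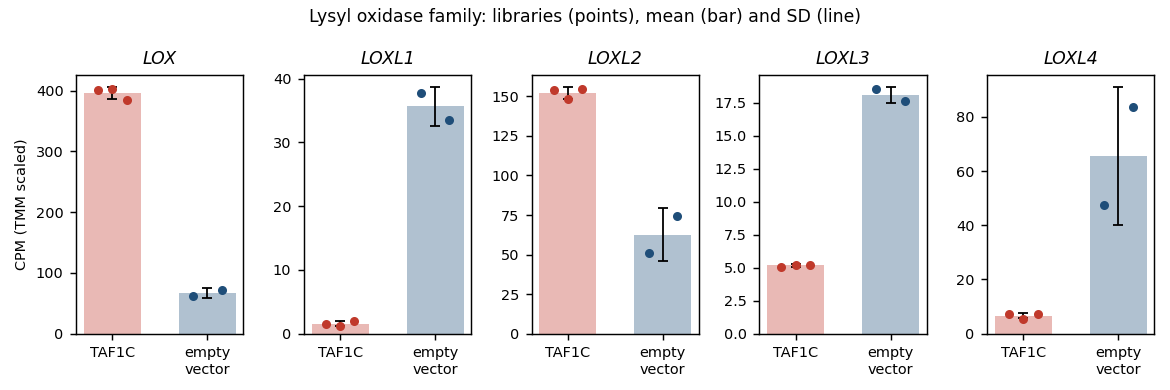
Normalised read count (CPM) of the 5 lysyl oxidases, with bars for the group mean, error bars for the SD (n = 3 labelled TAF1C, n = 2 empty vector) and a point for each library. LOX and LOXL2 are higher with the TAF1C label and LOXL1, LOXL3 and LOXL4 are lower, with no overlap between groups.

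Among the basement membrane collagens, 4 of 9 tested were raised (COL7A1, COL4A2, COL18A1 and COL4A5), 0 were lowered and 5 did not pass, beside 15.9% raised and 22.6% lowered of all tested genes. The median log2 fold change was 0.56, beside -0.10 over all tested genes. Their summed level was 1105, 1041 and 1098 CPM in the libraries labelled TAF1C, against 549.6 and 502 CPM in the empty vector libraries. By DESeq2 at an adjusted p of 0.05, and at an unadjusted edgeR p under 0.05, 6 were raised and 0 lowered. Without TAF1C replicate 1, 2 or 3 the count raised was 2, 3 and 2 of 9, and 0 were lowered. Of all genes in those fits, 1058 of 18114, 1182 of 18243 and 1076 of 18109 were raised. The median log2 fold change was 0.44 against empty vector library 1 alone and 0.67 against library 2 alone, beside -0.0251 and -0.000283 over all genes. COL4A3 and COL15A1 had -1.77 and -2.65 against library 1 alone, and 0.0344 and 1.46 against library 2 alone.

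The 6 type IV genes lie as 3 head to head pairs, each pair transcribed outward from a shared promoter region. In RefSeq the starts of COL4A1 and COL4A2 are 127 bases apart and their windows share 226 bases, those of COL4A3 and COL4A4 are 419 apart with 82 shared, and those of COL4A5 and COL4A6 are 380 apart with 121 shared. The window of COL4A2 on the plus strand (chr13:110307034-110307333) is shown because 1 partner passed the test and the other did not. Its capitals mark the 126 bases that lie between the COL4A1 start, on the minus strand, and the COL4A2 start.
COL4A2: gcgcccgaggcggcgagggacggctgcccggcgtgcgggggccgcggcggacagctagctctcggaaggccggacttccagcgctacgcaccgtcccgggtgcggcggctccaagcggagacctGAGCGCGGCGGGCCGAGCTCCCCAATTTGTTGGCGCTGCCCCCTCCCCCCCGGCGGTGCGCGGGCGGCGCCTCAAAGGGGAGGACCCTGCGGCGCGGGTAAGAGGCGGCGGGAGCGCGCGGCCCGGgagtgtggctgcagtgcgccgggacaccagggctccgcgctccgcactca
The shared stretch carries no TATAAA and, on either strand, 1 CCAAT and 1 GGGCGG fall in the whole window.

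COL4A2 (ENSG00000134871), a chain of the most widespread basement membrane trimer, had 499, 467 and 481 CPM in the libraries labelled TAF1C, against 177 and 218 CPM in the empty vector libraries. It was 2.44-fold higher without overlap (log2 fold change 1.29 ± 0.15 (SE), edgeR adjusted p = 0.00238). COL4A1 (ENSG00000187498), its partner in that trimer, had 129, 124 and 132 CPM, against 104 and 57.1 CPM with the empty vector. It too stood above both empty vector libraries, but those lay 1.82-fold apart and the test was not passed (0.67 ± 0.26 (SE), edgeR adjusted p = 0.0868). Against empty vector library 1 alone the COL4A1 log2 fold change was 0.27 and against library 2 alone 1.10, and both passed (edgeR adjusted p = 0.00586 and 1.15e-11). The ratio of COL4A2 to COL4A1 was 3.88, 3.76 and 3.65 in the libraries labelled TAF1C, against 1.71 and 3.81 in the empty vector libraries. Empty vector library 1 alone was low in this ratio, and library 2 lay among the libraries labelled TAF1C.

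COL4A5 (ENSG00000188153) and COL4A6 (ENSG00000197565) encode X-linked chains that can share a trimer. COL4A5 had 30.5, 32.8 and 28.0 CPM with the TAF1C label, against 19.8 and 22.2 CPM with the empty vector (0.53 ± 0.14 (SE), edgeR adjusted p = 0.0338), and COL4A6 had 15.2, 14.9 and 14.1 CPM, against 10.6 and 9.38 CPM (0.56 ± 0.18 (SE), edgeR adjusted p = 0.0523). Both stood above each empty vector library in every library labelled TAF1C, although COL4A6 missed the threshold. The COL4A5 call was lost when any 1 of the libraries labelled TAF1C was left out (log2 fold change 0.53, 0.48 and 0.59, edgeR adjusted p = 0.135, 0.132 and 0.0971). It was also lost with library totals alone or no filter (0.32 and 0.62), and with libraries blocked by replicate number.

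COL4A3 (ENSG00000169031) and COL4A4 (ENSG00000081052) make the collagen of the glomerular basement membrane together with COL4A5. COL4A4 had 63.6, 66.2 and 62.9 CPM in the libraries labelled TAF1C, against 51.7 and 58.1 CPM in the empty vector libraries (0.23 ± 0.11 (SE), edgeR adjusted p = 0.156). COL4A3 had 5.90, 5.53 and 5.60 CPM, against 19.0 and 5.30 CPM (-1.09 ± 0.51 (SE), edgeR adjusted p = 0.142). Only empty vector library 1 stood apart for COL4A3, and the groups overlapped. The ratio of COL4A4 to COL4A3 was accordingly 10.8, 12.0 and 11.2 with the TAF1C label, against 2.73 and 11 with the empty vector.

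**Figure D3:**
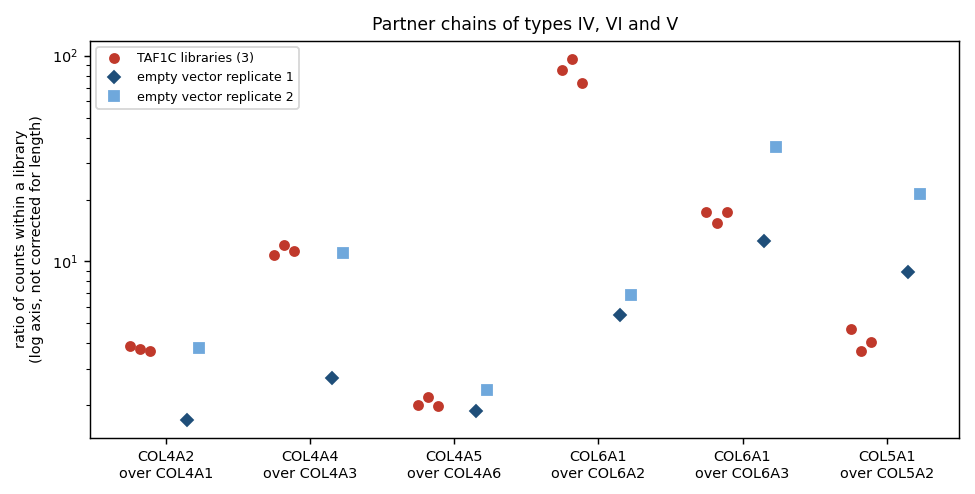
Ratio of CPM of 6 pairs of collagen chains within each library (log axis, not corrected for transcript length), libraries labelled TAF1C left of the empty vector libraries; each point is 1 library. COL6A1 over COL6A2 separates the groups widely, while COL4A2 over COL4A1 and COL4A4 over COL4A3 set empty vector library 1 apart from the other 4.

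COL7A1 (ENSG00000114270), the anchoring fibril collagen of stratified epithelia, had 242, 228 and 255 CPM in the libraries labelled TAF1C, against 86.2 and 64.2 CPM in the empty vector libraries. The groups were well apart, 3.22-fold on the means (log2 fold change 1.68 ± 0.17 (SE), edgeR adjusted p = 0.00153), and the call held in all 13 settings. Its window (chr3:48595280-48595579, minus strand) is shown as that of the basement membrane gene with the largest log2 fold change here. Capitals mark 1 TATAAA and 3 GGGCGG on either strand.
COL7A1: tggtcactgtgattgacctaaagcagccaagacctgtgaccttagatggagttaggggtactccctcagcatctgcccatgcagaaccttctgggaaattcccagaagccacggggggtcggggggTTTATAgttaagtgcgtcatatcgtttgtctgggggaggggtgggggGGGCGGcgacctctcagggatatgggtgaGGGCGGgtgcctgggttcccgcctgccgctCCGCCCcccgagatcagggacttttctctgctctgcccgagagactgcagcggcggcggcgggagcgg
COL18A1 (ENSG00000182871), the precursor of endostatin, had 118, 102 and 117 CPM with the TAF1C label, against 70.7 and 67.5 CPM with the empty vector, and did not overlap (0.70 ± 0.12 (SE), edgeR adjusted p = 0.00784). Its call was lost without TAF1C replicate 1 (0.67, edgeR adjusted p = 0.0538) or 3 (0.67, edgeR adjusted p = 0.0533), and with libraries blocked by replicate number. COL15A1 (ENSG00000204291), its close relative, had 1.71, 1.41 and 1.82 CPM, against 10.1 and 0.569 CPM, where the libraries labelled TAF1C lay between the empty vector libraries (-1.69 ± 1.0 (SE), edgeR adjusted p = 0.225).

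The fibrillar collagens were high in empty vector library 1. Of 11 genes 9 were tested, 0 were raised, 3 were lowered and 6 did not pass, beside 15.9% raised and 22.6% lowered of all tested genes. The lowered were COL5A1, COL5A2 and COL11A1, of which COL11A1 met the filter through the empty vector libraries alone, which leaves 2. At an unadjusted edgeR p under 0.05 the counts were 0 raised and 5 lowered. By DESeq2 they were 0 and 5 at an adjusted p of 0.05, and 0 and 6 unadjusted. The median log2 fold change of the 9 was -2.40, COL11A1 included. Empty vector library 1 was the highest of the 5 libraries for all 9, beside 37.5% of all tested genes. The class summed to 117, 100.4 and 111 CPM in the libraries labelled TAF1C, against 405 and 113 CPM in the empty vector libraries. Against library 1 alone the median log2 fold change of 8 tested was -3.02, beside -0.0251 over all genes in that fit. Against library 2 alone the median of 8 was 0.20, beside -0.000283 over all genes. The count lowered was 2 of 9 without any 1 of the libraries labelled TAF1C. Of all genes in those fits, 2043 of 18114, 1960 of 18243 and 2019 of 18109 were lowered.

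COL5A1 (ENSG00000130635) encodes the main chain of type V collagen, which starts type I fibrils and limits their width. It had 7.5, 6.24 and 6.52 CPM in the libraries labelled TAF1C, against 93.7 and 59.0 CPM in the empty vector libraries. The mean of the empty vector libraries was 11.3-fold higher and all 3 libraries labelled TAF1C lay far below both (log2 fold change -3.50 ± 0.23 (SE), edgeR adjusted p = 0.000481). Among fibrillar collagens its call alone was made in all 13 settings. The window of COL5A1 (chr9:134641553-134641852, plus strand) is shown for that reason, with 2 GGGCGG on either strand in capitals and no TATAAA or CCAAT.
COL5A1: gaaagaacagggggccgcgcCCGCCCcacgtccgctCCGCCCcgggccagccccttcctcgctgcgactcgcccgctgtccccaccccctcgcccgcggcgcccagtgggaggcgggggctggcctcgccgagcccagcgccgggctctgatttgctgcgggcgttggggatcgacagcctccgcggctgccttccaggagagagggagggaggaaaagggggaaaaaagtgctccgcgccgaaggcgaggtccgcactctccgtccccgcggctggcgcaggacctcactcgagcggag

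COL11A1 (ENSG00000060718), a chain of the cartilage fibril core related to COL5A1, had 0.570, 0.647 and 0.588 CPM in the libraries labelled TAF1C, against 13.3 and 3.70 CPM in the empty vector libraries (-3.81 ± 0.58 (SE), edgeR adjusted p = 0.00560). All libraries labelled TAF1C were below 1 CPM, so COL11A1 passed the filter through the empty vector libraries alone and was not tested without either of them. COL5A2 (ENSG00000204262), the usual partner of COL5A1, had 1.60, 1.71 and 1.61 CPM, against 10.5 and 2.77 CPM (-2.02 ± 0.56 (SE), edgeR adjusted p = 0.0361). It lay below both empty vector libraries, but without library 1 the log2 fold change was -0.82 (edgeR adjusted p = 0.0514). The call was also lost without any 1 of the libraries labelled TAF1C (edgeR adjusted p = 0.120, 0.127 and 0.120). With quantile normalization (-0.95) and with libraries blocked by replicate number it was lost too. The ratio of COL5A1 to COL5A2 was 4.70, 3.66 and 4.06 with the TAF1C label, against 8.91 and 21.3 with the empty vector, lower in every library labelled TAF1C.

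COL2A1 (ENSG00000139219), the collagen of cartilage and of the vitreous of the eye, had 4.13, 3.76 and 3.53 CPM in the libraries labelled TAF1C, against 73.0 and 1.35 CPM in the empty vector libraries. The empty vector libraries were 54.0-fold apart and enclosed the others, and the test was not passed (-3.28 ± 1.29 (SE), edgeR adjusted p = 0.0927). COL1A2 (ENSG00000164692) and COL3A1 (ENSG00000168542), chains of the interstitial fibrils made mainly by fibroblasts, followed the same shape. COL1A2 had 2.37, 1.94 and 1.27 CPM, against 20.3 and 1.78 CPM (edgeR adjusted p = 0.0737), and COL3A1 had 1.63, 1.21 and 0.835 CPM, against 12.0 and 0.889 CPM (edgeR adjusted p = 0.101). COL1A1 (ENSG00000108821), which joins COL1A2 in type I collagen, had 16.7, 8.94 and 13.5 CPM, against 17.6 and 4.16 CPM (0.26 ± 0.61 (SE), edgeR adjusted p = 0.761). For all of these, 1 empty vector library lay above and the other below most of the libraries labelled TAF1C. The ratio of COL1A1 to COL1A2 was 7.05, 4.61 and 10.6 with the TAF1C label, against 0.868 and 2.34 with the empty vector, and did not overlap.

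COL27A1 (ENSG00000196739), a collagen of developing cartilage, had 78.4, 73.1 and 78.6 CPM in the libraries labelled TAF1C, against 153 and 35.6 CPM in the empty vector libraries (-0.30 ± 0.55 (SE), edgeR adjusted p = 0.696). COL5A3 (ENSG00000080573), another type V chain, had 3.02, 2.03 and 3.28 CPM, against 9.48 and 3.09 CPM (-1.18 ± 0.52 (SE), edgeR adjusted p = 0.123). The groups overlapped for both. COL24A1 reached at most 2.16 CPM and COL11A2 at most 0.111 CPM, both in empty vector library 1, and neither was tested. Of 4 endothelial markers, 2 (VWF and CDH5) were highest in empty vector library 1. VWF had 3.36, 2.94 and 4.02 CPM in the libraries labelled TAF1C, against 42.2 and 3.70 CPM with the empty vector. KDR, with VWF the highest in mean CPM, had 20.1, 21.4 and 19.5 CPM, against 20.3 and 4.94 CPM. The 4 summed to 26.2 to 27 CPM, against 69.4 (42.2 of it VWF) and 10.3 CPM. The 7 chondrocyte markers, with the highest mean CPM for MATN3 and SOX9, summed to 13.3 to 14.4 CPM, against 23.8 and 7.32 CPM. Of 4 tested, 0 passed, beside 38.5% of all tested genes. The 10 fibroblast markers, with the highest mean CPM for TWIST1 and PDPN, summed to 98.9 to 110.3 CPM, against 89.5 and 93.3 CPM. TWIST1 alone made up 59.8 to 68.0 CPM of these sums, against 27.7 and 30.7 CPM. Of 7 tested, 1 was raised and 1 lowered, beside 15.9% and 22.6% of all tested genes. Of those 7, only 1, PDGFRB, was highest in empty vector library 1, beside 37.5% of all tested genes. The 3 not tested, FAP, S100A4 and TCF21, were also highest there, at 1.56, 2.49 and 1.26 CPM. PDGFRB had 13.4, 10.0 and 11.7 CPM in the libraries labelled TAF1C, against 21.7 and 5.37 CPM with the empty vector. TWIST1, the raised marker, had 66.9, 59.8 and 68.0 CPM in the libraries labelled TAF1C, against 27.7 and 30.7 CPM with the empty vector. THY1, the lowered marker, had 3.82, 2.18 and 2.75 CPM, against 13.2 and 22.1 CPM. The 5 smooth muscle markers, with the highest mean CPM for TAGLN and MYH11, summed to 77.1 to 84.4 CPM, against 51.5 and 38.0 CPM. TAGLN alone made up 61.5 to 65.2 CPM of these sums, against 22.3 and 22.7 CPM. The part of other cells in the fibrillar values of empty vector library 1 was not tested.

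**Figure D4:**
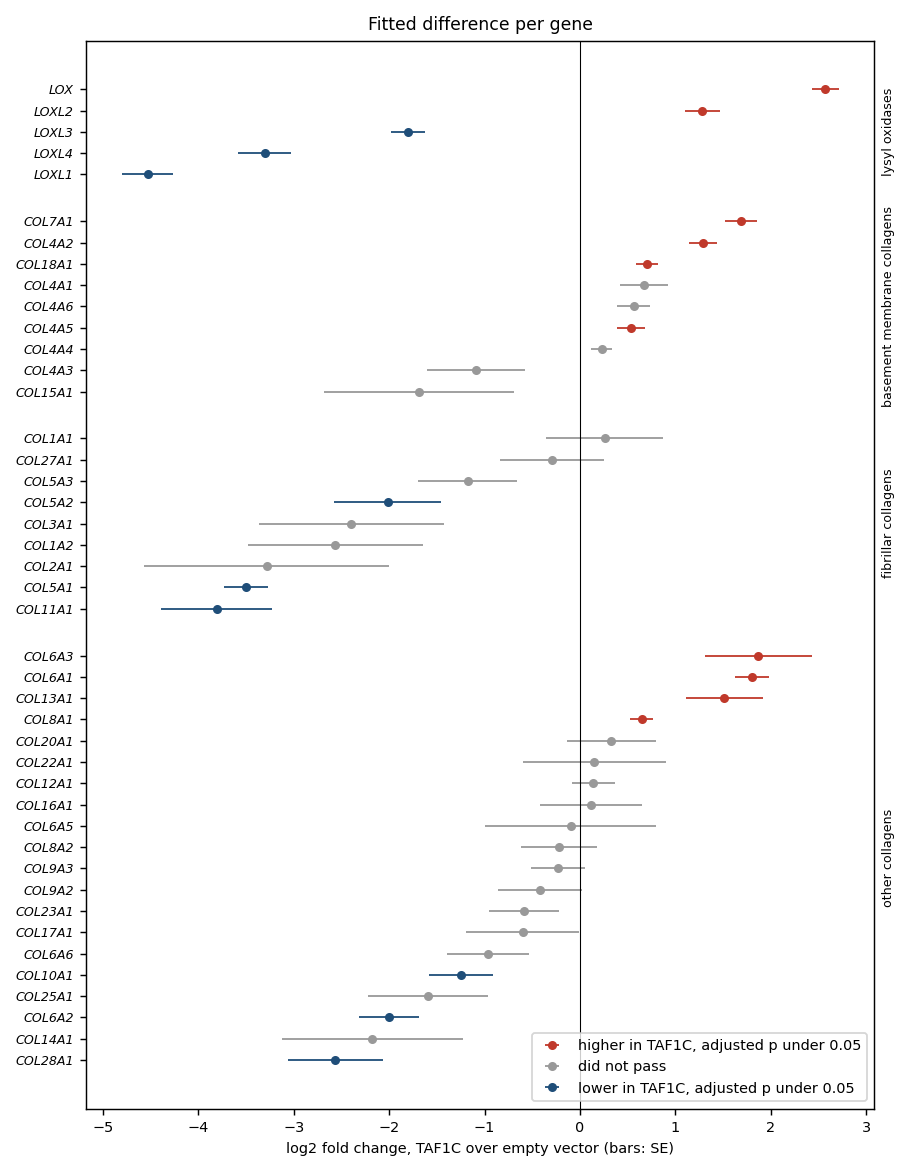
Log2 fold change, libraries labelled TAF1C over empty vector libraries, of the 43 tested genes by class, with the SE as error bars. Red (higher) and blue (lower) marks passed the edgeR test at an adjusted p of 0.05, and grey marks did not. The lysyl oxidases lie on both sides of 0 with short error bars, basement membrane chains mostly to the right, and fibrillar chains mostly to the left with long error bars.

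Among the other collagens, 4 of 20 tested were raised (COL6A1, COL6A3, COL8A1 and COL13A1), 3 were lowered (COL28A1, COL6A2 and COL10A1) and 13 did not pass, shares near the 15.9% raised and 22.6% lowered of all tested genes. Their median log2 fold change was -0.23, with -0.84 against empty vector library 1 alone and 0.32 against library 2 alone. Over all genes these medians were -0.10, -0.0251 and -0.000283. Without any 1 of the libraries labelled TAF1C 1 was raised and 1 to 2 were lowered. Of all 18109 to 18243 genes in those fits, 1058 to 1182 were raised and 1960 to 2043 lowered. The chains of type VI collagen, which assembles as beaded filaments from 3 different chains, moved in both directions. COL6A1 (ENSG00000142156) had 329, 292 and 311 CPM in the libraries labelled TAF1C, against 103 and 75.3 CPM in the empty vector libraries. It was 3.49-fold higher without overlap (log2 fold change 1.80 ± 0.18 (SE), edgeR adjusted p = 0.00142). COL6A2 (ENSG00000142173), its neighbour in the genome, had 3.85, 3.03 and 4.21 CPM, against 18.7 and 11 CPM, and the empty vector mean was 4.01-fold higher (-2.0 ± 0.31 (SE), edgeR adjusted p = 0.00606).

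The ratio of COL6A1 to COL6A2 was 85.4, 96.5 and 73.9 in the libraries labelled TAF1C, against 5.50 and 6.86 in the empty vector libraries. Both calls held in all 13 settings. COL6A3 (ENSG00000163359), the largest chain of the trimer, had 19.0, 19.1 and 17.9 CPM, against 8.14 and 2.10 CPM (1.87 ± 0.56 (SE), edgeR adjusted p = 0.0450). It was higher than both empty vector libraries, which lay 3.88-fold apart, with a log2 fold change of 3.09 without library 1 and 1.16 without library 2. The call was lost without any 1 of the libraries labelled TAF1C (edgeR adjusted p = 0.120, 0.136 and 0.117), with library totals alone (1.57) and with a filter of 5 CPM (1.7). COL6A6 and COL6A5, chains that can stand in for COL6A3, reached at most 5.31 and 1.52 CPM, both in empty vector library 1, and neither passed.

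COL8A1 (ENSG00000144810), a short chain collagen of vessel walls and of the membrane under the corneal endothelium, had 193, 211 and 200.2 CPM in the libraries labelled TAF1C, against 121 and 137 CPM in the empty vector libraries. It was 1.57-fold higher without overlap (0.65 ± 0.12 (SE), edgeR adjusted p = 0.0104). COL13A1 (ENSG00000197467), a membrane-spanning collagen of cell contacts and of the neuromuscular junction, had 8.41, 9.12 and 11.8 CPM, against 4.68 and 2.17 CPM (1.51 ± 0.40 (SE), edgeR adjusted p = 0.0324). COL10A1 (ENSG00000123500), the collagen of hypertrophic cartilage, had 1.34, 1.53 and 1.08 CPM, against 3.68 and 2.59 CPM (-1.25 ± 0.34 (SE), edgeR adjusted p = 0.0334). All 3 separated the groups, yet each call was lost without any 1 of the libraries labelled TAF1C: the edgeR adjusted p was 0.0556, 0.0578 and 0.0610 for COL8A1, 0.0857, 0.103 and 0.117 for COL13A1, and 0.119, 0.0919 and 0.133 for COL10A1. COL8A1 and COL10A1 were also lost with no filter (0.74 and -1.13), COL13A1 with library totals alone (1.24), and COL10A1 with quantile normalization (-0.39). With libraries blocked by replicate number all 3 were lost.

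COL28A1 (ENSG00000215018), related to type VI in its domains, had 1.23, 0.706 and 0.649 CPM in the libraries labelled TAF1C, against 3.12 and 7.11 CPM in the empty vector libraries (-2.56 ± 0.50 (SE), edgeR adjusted p = 0.0120). Since only 1 library labelled TAF1C reached 1 CPM, COL28A1 met the filter through the empty vector libraries alone. It is the only called gene here with more than 2-fold more in empty vector library 2 than in library 1. Without TAF1C replicate 2 or 3 the call was lost (edgeR adjusted p = 0.0685 and 0.0607), as it was with quantile normalization (log2 fold change -1.55).

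The FACIT collagens, which decorate the surface of fibrils, gave 0 calls among 7 tested, beside 38.5% of all tested genes. The count was also 0 at an unadjusted edgeR p under 0.05. With DESeq2 it was 0 at an adjusted p of 0.05, and 1 was lowered at an unadjusted p under 0.05. The median log2 fold change of the class was -0.60 against empty vector library 1 alone and 0.77 against library 2 alone. With quantile normalization 2 were raised, and with no filter 1 of 10 was lowered. COL16A1 (ENSG00000084636) had 134, 119 and 137 CPM in the libraries labelled TAF1C, against 192 and 47.5 CPM in the empty vector libraries (0.12 ± 0.53 (SE), edgeR adjusted p = 0.878). The empty vector libraries enclosed the others. COL12A1 (ENSG00000111799), found along type I fibrils, had 7.81, 7.85 and 7.20 CPM, against 7.51 and 6.33 CPM (0.14 ± 0.22 (SE), edgeR adjusted p = 0.647). All 3 chains of type IX, which coats the type II fibrils of cartilage, were highest in empty vector library 1. COL9A2 had 7.33, 5.91 and 8.10 CPM, against 13.9 and 5.15 CPM (edgeR adjusted p = 0.481), and COL9A3 had 7.81, 6.06 and 6.80 CPM, against 9.85 and 6.36 CPM (edgeR adjusted p = 0.547). COL9A1 had 0.485, 0.324 and 0.959 CPM, against 29.9 and 0.533 CPM, and was not tested because 1 library alone reached 1 CPM. COL22A1, COL14A1 and COL20A1 reached at most 5.28, 7.43 and 4.70 CPM and did not pass, while COL19A1 and COL21A1 reached at most 1.64 and 1.71 CPM and were not tested. Of the other membrane-spanning collagens, COL17A1 of the hemidesmosome, COL23A1 and COL25A1 reached at most 7.10, 4.24 and 3.16 CPM, and COL8A2 at most 2.42 CPM. None of these 4 passed.

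The choice of empty vector library changed many of these values. Library 1 exceeded library 2 by more than 2-fold for 21 of the 43 genes, beside 19.2% of all tested genes, and the reverse held for 1, beside 5.36%. With library 1 as the only control, 13 of 42 genes were raised and 25 lowered, beside 35.8% and 34.0% of all genes in that fit. With library 2 as the only control, 19 of 40 were raised and 7 lowered, beside 29.0% and 29.5%. Both fits share the 3 libraries labelled TAF1C. Among the 40 genes tested in both, 6 passed with opposite signs, beside 5.47% of 16120 genes. Those 6 were COL2A1, COL27A1, COL1A1, COL15A1, COL16A1 and COL22A1. COL2A1 had a log2 fold change of -4.29 against library 1 (edgeR adjusted p = 3.13e-22) and 1.43 against library 2 (edgeR adjusted p = 0.000683). COL27A1 had -1.03 (edgeR adjusted p = 6.22e-12) and 1.04 (edgeR adjusted p = 2.72e-10). In each such fit the empty vector group is 1 library, assumed to vary as the libraries labelled TAF1C do, so these small p do not include the spread between the empty vector libraries. The genes called in all 13 settings, that is in the main test and all 12 alternatives, were COL4A2, COL6A1, COL7A1, LOX and LOXL2 among those raised, and COL5A1, COL6A2, LOXL1, LOXL3 and LOXL4 among those lowered. COL11A1 was lowered in the 10 settings in which it was tested.

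**Figure D5:**
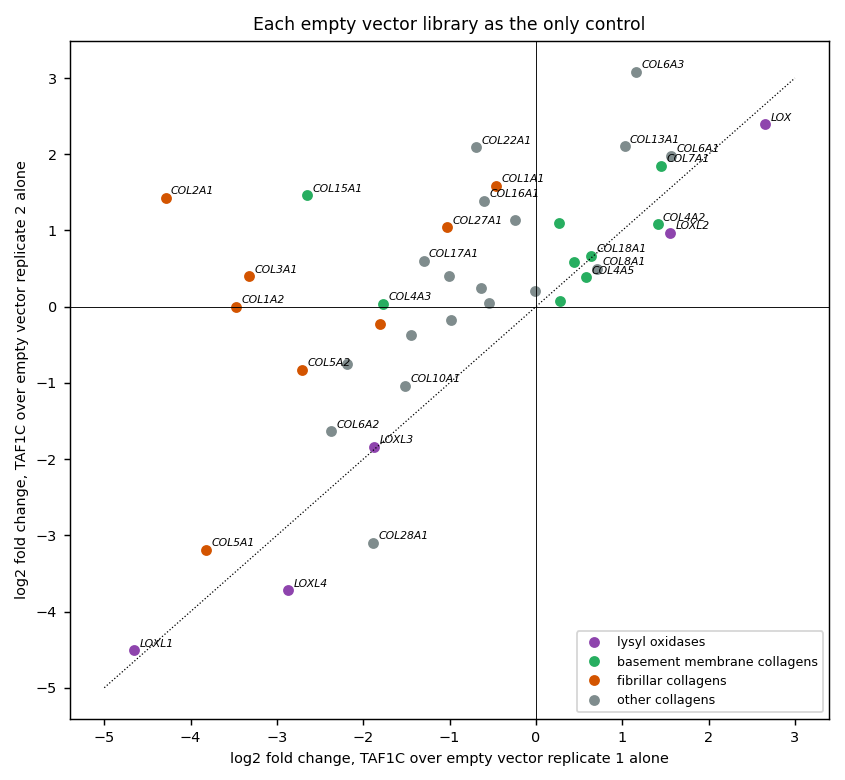
Log2 fold change of the libraries labelled TAF1C against empty vector library 1 alone (horizontal axis) and against library 2 alone (vertical axis) for the 40 genes tested in both; each point is 1 gene, marked by class. The lysyl oxidases lie near the diagonal, and 6 collagens, COL2A1 the farthest out, passed the test with opposite signs in the upper left.

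The genes that fold, trim, bind and sense collagen were taken as 4 lists. Of 19 genes for folding and modification in the endoplasmic reticulum, 9 were raised, 2 lowered and 8 did not pass, beside 15.9% raised and 22.6% lowered of all tested genes, with a median log2 fold change of 0.72. SERPINH1, the collagen chaperone HSP47, had 348, 318 and 341 CPM in the libraries labelled TAF1C, against 77.2 and 106 CPM in the empty vector libraries, without overlap (1.87 ± 0.18 (SE), edgeR adjusted p = 0.00133). FKBP10, a prolyl isomerase needed for collagen cross-linking, rose by 1.62 ± 0.12 (SE) (edgeR adjusted p = 0.000603). The lysyl hydroxylases PLOD1, PLOD3 and PLOD2, which prepare lysines for cross-links and sugars, rose by 1.36 ± 0.10 (SE), 1.38 ± 0.13 (SE) and 1.05 ± 0.14 (SE) (edgeR adjusted p = 0.000715, 0.00141 and 0.00379). P3H3, listed under its older symbol LEPREL2, is a prolyl hydroxylase relative and was lowered (-1.33 ± 0.11 (SE), edgeR adjusted p = 0.000862). The other calls were P4HA2, COLGALT1, FKBP14 and P3H1 (listed as LEPRE1) raised and COLGALT2 lowered, the last through a filter met in the empty vector libraries alone. Without any 1 of the libraries labelled TAF1C 6 of 19 were raised and 2 lowered. Of all 18109 to 18243 genes in those fits, 1058 to 1182 were raised and 1960 to 2043 lowered. The median log2 fold change of the list was 0.90 against empty vector library 1 alone and 0.52 against library 2 alone.

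Of 7 tested genes of procollagen cleavage, 1 was raised and 2 were lowered, beside 15.9% and 22.6% of all tested genes. The median log2 fold change was -0.46, with -0.94 against empty vector library 1 alone and 0.72 against library 2 alone. Without any 1 of the libraries labelled TAF1C 0 were lowered, beside 1960 to 2043 of all 18109 to 18243 genes in those fits. BMP1, the proteinase that removes the C-terminal propeptide and activates pro-LOX, was raised (0.86 ± 0.12 (SE), edgeR adjusted p = 0.00397). PCOLCE2, an enhancer of such cleavage, and ADAMTS14, an N-terminal propeptidase, were lowered (-1.60 ± 0.30 (SE) and -1.26 ± 0.33 (SE), edgeR adjusted p = 0.0103 and 0.0319). Of 6 tested partners in fibril assembly, 2 were raised and 1 was lowered, beside 15.9% and 22.6% of all tested genes. Their median was 0.37, with 0.30 against library 1 alone and 0.38 against library 2 alone. Without any 1 of the libraries labelled TAF1C 1 was raised and 0 were lowered, beside 1058 to 1182 and 1960 to 2043 of all genes. FN1, fibronectin, had 2417, 2455 and 2459.7 CPM in the libraries labelled TAF1C, against 242 and 179.9 CPM in the empty vector libraries. It stood 11.6-fold higher on the means (3.53 ± 0.23 (SE), edgeR adjusted p = 0.000476). SPARC, a collagen-binding glycoprotein, was raised (0.84 ± 0.19 (SE), edgeR adjusted p = 0.0184) and BGN, the proteoglycan biglycan, was lowered (-1.39 ± 0.36 (SE), edgeR adjusted p = 0.0294). Of 9 tested receptors, 3 were raised and 0 lowered, beside 15.9% and 22.6% of all tested genes. At an unadjusted edgeR p under 0.05 1 was lowered. By DESeq2 0 were lowered at an adjusted p of 0.05, and 1 unadjusted. The raised were ITGA2 and ITGB1, which form a collagen-binding integrin (1.65 ± 0.20 (SE) and 1.23 ± 0.16 (SE), edgeR adjusted p = 0.00255 and 0.00357), and MRC2, an endocytic collagen receptor (1.40 ± 0.15 (SE), edgeR adjusted p = 0.00179). The median of the 9 was 0.29, with 0.12 against library 1 alone and 1.04 against library 2 alone. DDR1, a collagen receptor kinase, and TNXB, tenascin X, are listed at 0 in all 5 libraries. Both lie in the major histocompatibility complex, as does COL11A2, and how reads with several matches were counted is not stated, so these values are uncertain. Over all 4 lists, 15 of 41 tested genes were raised and 5 lowered, beside 15.9% and 22.6% of all tested genes. Their median log2 fold change was 0.50, with 0.51 against library 1 alone and 0.72 against library 2 alone. Over all genes these medians were -0.10, -0.0251 and -0.000283. Without any 1 of the libraries labelled TAF1C 11 of 41 were raised and 2 lowered. Of all 18109 to 18243 genes in those fits, 1058 to 1182 were raised and 1960 to 2043 lowered. Calls lost in all 3 of those fits were PCOLCE2 (edgeR adjusted p = 0.0589, 0.0581 and 0.0538), ADAMTS14 (0.126, 0.124 and 0.0951), SPARC (0.0789, 0.0817 and 0.0757) and BGN (0.103, 0.114 and 0.114), and also COLGALT1, FKBP14 and P3H1.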

How the data were processed

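Per the labels' protocols, a mirVana kit served for isolation and NEBNext Ultra, after removal of ribosomal RNA, for the long RNA libraries. Per the submitters' processing notes Cufflinks 2.2.1, HISAT2, Bowtie2 2.2.4, Trimmomatic 0.36 and DESeq2 were used with build hg19. Their roles, the annotation and the strand setting are not given in the sources used here. The deposited tables hold the authors' raw counts per Ensembl gene, not normalized. The small RNA tables were not used.

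Symbols on more than 1 row (236 of 55771) were summed. Counts were scaled by TMM and tested with edgeR 4.0.16 (quasi-likelihood, R 4.3.3), 3 libraries labelled TAF1C against 2 empty vector libraries, no covariate, after keeping genes that reached 1 CPM in 2 or more libraries. P-values were two-sided, adjusted by Benjamini-Hochberg over 18402 genes at 0.05. The SE was the log2 fold change divided by the square root of F. CPM are TMM-scaled and not corrected for length, so levels were not compared between genes, apart from naming the markers of highest mean CPM. The fit was also tested on simulated data. Totals of 22809601 to 37533366 counts limit precision for genes near 1 CPM, and PCR duplicates were not marked by molecular identifiers.

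Alternatives were DESeq2 1.42.0, RLE scaling, library totals, quantile normalization with limma 3.58.1, no filter, a filter of 5 CPM, a replicate block and leaving out each library. Members, classes, pathway and marker lists were chosen with earlier results of these data known. Named were TAF1C, every tested member, up to 6 called genes of each pathway list and the 2 of highest mean CPM of each marker list (bronchial epithelium, fibroblast, chondrocyte, smooth muscle, endothelium, photoreceptor, neuron); others were named after their values were seen. Promoter windows came from RefSeq (GRCh38.p14), matched by symbol for 35 of 48 members, using the farthest upstream start. Tables and plots used Python 3.11.15, pandas 2.3.3, SciPy 1.17.1 and matplotlib 3.10.9.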

Additional observations from a re-analysis of the deposited data

How the results depend on the processing

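Of the 19 calls, 10 were made in all 13 settings and 1, COL11A1, in all 10 that tested it. None of the 19 changed direction in any alternative. The count raised was 6 with the replicate block and 5 to 19 with 1 library left out (19 without empty vector replicate 1, 13 without replicate 2). The count lowered was 5 with a filter of 5 CPM and 6 to 25 with 1 library left out (7 without empty vector replicate 1, 25 without replicate 2). For all genes, 1817 were raised with no filter, and with the block 1425 were raised and 2662 lowered; with 1 library left out 1058 to 5967 were raised and 1960 to 5665 lowered. Leaving out 1 library gave 11 to 26 pathway genes raised, with 2 to 9 lowered, and the block gave 2 lowered. The TAF1C log2 fold change was -0.38 with library totals, past the threshold, and -0.36 to -0.0568 with 1 library left out (-0.36, past the threshold, without empty vector replicate 1).

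Reversals fell among members that had not passed. With library totals COL12A1 had -0.0943, COL16A1 -0.19, COL1A1 -0.0439 and COL22A1 -0.17. With quantile normalization COL15A1 had 0.18, COL17A1 0.51, COL23A1 0.34, COL6A5 1.60, COL8A2 0.60, COL9A2 0.36 and COL9A3 0.55. COL16A1 had -0.0498 with the 5 CPM filter, COL27A1 0.0341 with the block, and COL6A5 0.13 with the block, 0.10 with no filter and 0.00115 with DESeq2. With 1 library left out the log2 fold change ranged over -0.0103 to 0.20 for COL12A1, -2.65 to 1.46 for COL15A1, -0.60 to 1.39 for COL16A1, -1.30 to 0.60 for COL17A1 and -0.47 to 1.58 for COL1A1. It ranged over -3.47 to 0.00157 for COL1A2, -0.25 to 1.13 for COL20A1, -0.69 to 2.09 for COL22A1, -1.03 to 1.04 for COL27A1, -4.29 to 1.43 for COL2A1 and -3.32 to 0.40 for COL3A1. For COL4A3 it was -1.77 to 0.0344, for COL6A5 -1.01 to 0.0873, for COL8A2 -0.64 to 0.24, for COL9A2 -1.0 to 0.40 and for COL9A3 -0.55 to 0.050. The causes were not tested.

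The replicate numbers do not mark shared cultures in the labels, and deviations of the pairs sharing a number correlated at 0.0427 and 0.135 across genes, so the block was kept as an alternative. Under the replicate block COL4A5, COL18A1, COL8A1, COL13A1, COL5A2 and COL10A1 were not called. Leaving out an empty vector library leaves 1, whose spread is then assumed to equal that of the libraries labelled TAF1C. Genes near 1 CPM rest on few counts.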

Other observations

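LOXL1-AS1 (ENSG00000261801), a noncoding gene antisense to LOXL1, had 1.51, 0.882 and 0.835 CPM in the libraries labelled TAF1C, against 12.2 and 10.2 CPM in the empty vector libraries. It was lower without overlap (log2 fold change -3.37 ± 0.36 (SE), edgeR adjusted p = 0.00178), in the same direction as LOXL1. No source used here states whether the counting was by strand, so reads of the 2 genes where they overlap cannot be told apart. Of the antisense genes named after other members, COL4A2-AS2 and COL18A1-AS1 did not pass, and COL4A2-AS1, COL18A1-AS2 and COL5A1-AS1 were below the filter.

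Among the 35 promoter windows, 19 held GGGCGG, 10 CCAAT and 5 TATAAA on either strand. The letters TGANTCA, read by AP-1 factors, were in 0 of the 35, beside 7.71% of all windows. GGAATG, the letters read by TEAD factors, were in 2 of the 35, beside 14.0% of all windows. These counts describe the letters in the windows and say nothing of the factors.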
